A study of Caenorhabditis elegans with 60 samples.

Results

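The 200 most abundant piRNAs of Caenorhabditis elegans L4 larvae are described here. They were chosen by their measured level: of 15366 annotated piRNAs listed in the deposited table, the 200 with the highest mean normalized signal in the 3 untreated wild type libraries of the oxidation experiment. The other 15166 piRNAs serve as the comparison. Wild type animals are the strain N2, and the mutants are rde-1(ne219) V and henn-1(pk2295) III, all grown at 20 C on bacteria. In the oxidation experiment, small RNAs of N2 and of rde-1(ne219) whole animals were sequenced untreated or after sodium periodate, with 3 libraries in each of the 4 groups. Small RNAs were also sequenced from dissected gonads of gravid adults (68 to 70 h) and from embryos, in each case from 3 N2 and 3 henn-1(pk2295) libraries. The rde-1(ne219) animals carry no henn-1 mutation, and no henn-1 library was oxidized.

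piRNAs of C. elegans, also called 21U-RNAs, are germline small RNAs that begin with uridine and are bound by the Argonaute PRG-1. Each is transcribed as a short precursor from its own locus, cut at its 5′ end and trimmed at its 3′ end by the exonuclease PARN-1, after which HENN-1 adds a methyl group to the 2′ hydroxyl of the last nucleotide. PRG-1 and its piRNA recognise complementary transcripts and start the synthesis of secondary 22G-RNAs. Periodate destroys an unmethylated 3′ end so that it can no longer be ligated, and methylated RNAs therefore gain share in oxidized libraries. RDE-1, an Argonaute of the response to double-stranded RNA, is not part of this pathway.

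Several features of the libraries bear on what follows. The libraries held between 6311071 and 13613629 counted reads in the oxidation experiment, between 4215264 and 8745475 in gonads, and between 967644 and 3829632 in embryos. The samples' source labels place the untreated animals at L4 (52 h) and the oxidized ones at the gravid adult stage (68 h), whereas their descriptions call both L4, so that by the source labels oxidation and stage cannot be told apart. Wild type embryo library 1 stood apart: it had the 967644 reads, and piRNAs made up 37.4% of them, against 12.1% and 10.01% in the other wild type embryo libraries and 84.3% to 90.5% in the henn-1 ones. Its piRNA reads numbered 361578, against 438811 and 383333 in the other wild type ones. Its reads of WAGO loci numbered 606066, against 3187228 and 3446299. Whether the 3 libraries of a group came from independent cultures is not stated, and p-values measure only the spread between these libraries, which may be technical. In RNA from whole tissues, fewer cells of a type and less RNA per cell cannot be told apart. In gonad mRNA, the targeted gene henn-1 had normalized signals of 2192, 2240.5 and 2298 in wild type and 234, 249 and 229 in henn-1 libraries.

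All 200 piRNAs matched the reference name table (assembly WBcel235) and all lay on chromosome IV, which carries the main piRNA clusters. Of the 15163 other matched piRNAs, 95.7% lay there. The neighbour in gene order on either side was another of the 200 for 22 of them, and one of the 200 for 377 (2.49%) of the other piRNAs. Annotated piRNA loci overlap, and the locus of 96 of the 200 (48.0%) overlapped another annotated piRNA, against 42.6% of the others. In 9 pairs both piRNAs belonged to the 200. Double annotation of a locus in these pairs can supply many of the 22 with a neighbour in the list. The neighbours were not counted again without these pairs. One such pair, 21ur-172 and 21ur-11099, occupied the same locus and had identical values in every library. The other 8 pairs were offset by 1 base, among them the 2 most abundant piRNAs, 21ur-5107 and 21ur-8974. In untreated wild type libraries the signal of 21ur-8974 was between 0.947 and 0.951 times that of 21ur-5107. Some reads of such pairs may have been counted for both loci, but the rule for this is not given, and not all reads were. In henn-1 gonads the signal of 21ur-9577 was 0.340 to 0.393 times that of 21ur-4974. That of 21ur-5426 was 1.79 to 2.00 times that of 21ur-9553, and that of 21ur-1237 was 1.04 to 1.07 times that of 21ur-8536. Results are therefore also given with 1 piRNA for each set of overlapping loci, which keeps 191 of the 200.

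The mean level of the 200 in untreated wild type libraries ran from 577 to 9902, with a median of 959, on the DESeq2-normalized scale of that table. The median of the other piRNAs was 1.75, and 4496 of them were listed at 0. 21ur-5107 had normalized signals of 11128, 8689 and 9889 in the 3 libraries, and 21ur-8974 had 10551, 8264 and 9360.4. Next came 21ur-5432 with 4643, 4096 and 5284. 21ur-4554 followed with 4796, 3750.0 and 4248 and 21ur-552 with 4780.1, 3614 and 4111. These 5 were above every remaining piRNA of the list in mean level. 21ur-669 had 3402, 2435 and 2854 and was followed by 21ur-2686, 21ur-3975, 21ur-3381 and 21ur-3606, whose means lay between 2166 and 2574. The lower end of the list was not a natural break. 21ur-1373, 21ur-3503 and 21ur-4844 at ranks 198 to 200 had means of 579, 578 and 577, and 21ur-5279, 21ur-2351 and 21ur-4023 at ranks 201 to 203 had 577, 577 and 571. Ranking by the median in place of the mean kept 195 of the 200.

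The ranking carried over to the untreated rde-1 libraries, where 176 of the 200 were again among the 200 most abundant and all 200 among the first 1000. It carried over less completely to other tissues. In wild type gonads 107 were among the first 200 and 177 among the first 1000, and in wild type embryos these counts were 107 and 174. 21ur-5107 ranked 1 in untreated wild type animals, 2 in wild type gonads and 1 in wild type embryos. 21ur-3975, at rank 8 in the L4 animals, was the most abundant piRNA of wild type gonads. 21ur-669, at rank 6, ranked 255 in wild type gonads and 187 in wild type embryos. 21ur-5604, at rank 124, ranked 2272 in wild type gonads, the lowest of the 200.

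The 200 piRNAs, a small part of those listed, held a large share of the piRNA signal of untreated animals. Their share of the summed piRNA signal was 41.7%, 38.6% and 39.4% in the untreated wild type libraries, which chose them, with a mean of 39.9% ± 1.60 (SD, n = 3). In untreated rde-1 libraries, which did not enter the choice, it was 37.7%, 41.1% and 42.6%. Between 270 and 361 piRNAs were needed to reach 50% of the piRNA signal in any untreated library. 21ur-5107 and 21ur-8974 alone held between 2.54% and 3.57%.

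The 200 held a larger share in oxidized libraries and a smaller one in henn-1 libraries. In oxidized wild type libraries the share was 62.9%, 58.2% and 57.8% and in oxidized rde-1 libraries 59.2%, 59.5% and 59.5%. Neither genotype's oxidized libraries overlapped its untreated ones. Between 64 and 94 piRNAs now sufficed for 50% of the signal. In wild type gonads the 200 held 44.4%, 47.5% and 45.96%, and in henn-1 gonads 25.7%, 26.5% and 26.1%. In wild type embryos the values were 43.5%, 32.8% and 39.4% and in henn-1 embryos 21.02%, 22.9% and 21.1%, again without overlap, and the first wild type value belongs to the library that stood apart. Without it the mean of the wild type embryo libraries was 36.1%, against 38.5% with it. Each library's own 200 most abundant piRNAs held 56.8%, 58.8% and 57.9% in wild type gonads and 43.8%, 45.3% and 45.2% in henn-1 gonads. In embryos these shares were 57.2%, 45.3% and 52.7% in wild type and 39.8%, 42.7% and 40.3% in henn-1. By this measure henn-1 libraries were also lower, but by less than for the list, which was ranked in wild type animals. The part of a changed ranking in the list's drop was not tested. With 21ur-5107 and 21ur-8974 left out, the mean over oxidized libraries was 50.6% for wild type and 52.0% for rde-1, and 36.7% and 37.6% for the untreated ones.

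**Figure D1:**
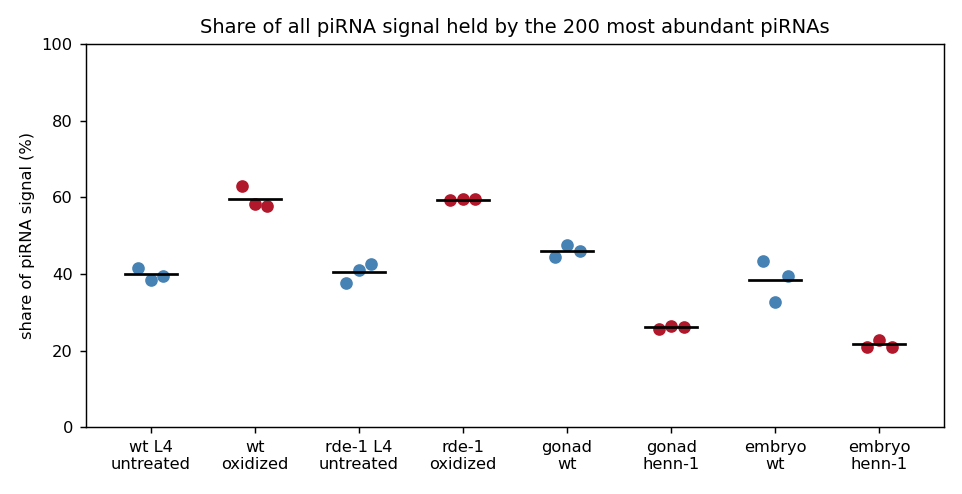
Share of all piRNA signal held by the 200 most abundant piRNAs in each library (points, percent) with the mean of 3 libraries (bars), untreated and wild type groups in blue and oxidized and henn-1 groups in red. Oxidized libraries lie between 57.8% and 62.9%, untreated ones between 37.7% and 42.6%, henn-1 gonads between 25.7% and 26.5% and henn-1 embryos between 21.02% and 22.9%.

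The oxidation response asks which small RNAs carry a protected 3′ end. The piRNA class as a whole made up 5.47% to 6.47% of listed signal in untreated and 64.6% to 70.7% in oxidized wild type libraries. In rde-1 it made up 5.12% to 5.84% and 55.2% to 61.9%. Summed over the 200, the normalized signal was 17.5 times higher in oxidized than in untreated wild type libraries (15.2 to 20.9 over the 9 pairings of libraries). Summed over the other piRNAs it was 7.84 times higher (7.23 to 8.59). In rde-1 the ratios were 18.7 (16.6 to 22.6) and 8.59 (6.92 to 11.4). Since untreated wild type libraries chose the list, their contrast is a description without a test, and the rde-1 libraries supply the test.

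In rde-1, all 200 passed the filter of a mean of at least 10, and 198 rose on oxidation at an adjusted p under 0.05 (limma with a trend, Benjamini-Hochberg over all features of the table), with none lower. Of the 5419 other piRNAs tested, 61.3% rose and 0.332% fell, and over all 12034 features tested the shares were 31.1% and 26%. The median log2 change was 3.42 for the 200, 2.27 for the other piRNAs and 0.03 for all features. Other piRNAs are less abundant, and the pseudocount of 1 shrinks their changes. The filter also admits other piRNAs through the oxidized libraries alone. Without it, the medians of the log2 changes between group means were 3.50 for the 200 and 0.46 for all others, whose lower quartile was 0. In wild type, 193 of the 200 were at least 2-fold higher after oxidation, against 76% of 5677 other piRNAs and 37.1% of 12383 features, and their median log2 change was 3.31.

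The response differed widely within the 200. 21ur-669 had 3169, 3410.4 and 3043 in untreated and 237352, 346535 and 193437 in oxidized rde-1 libraries. This was the largest rise, 6.29 ± 0.20 (SE) on the log2 scale (adjusted p 7.5e-08, limma), and it made 21ur-669 the most abundant piRNA of oxidized rde-1 animals. 21ur-1404 rose by 6.12, 21ur-7999 by 6.11, 21ur-8083 by 6.09 and 21ur-1326 by 6.05. In wild type the changes of these 5 lay between 5.76 and 6.29. At 32-fold or more lay 21 of the 200 in wild type and 27 in rde-1, and the share of the other piRNAs at that size was not counted. Rises of this size were not particular to the list, since the largest log2 changes among other piRNAs were 6.75 in wild type and 7.01 in rde-1. The 2 most abundant piRNAs were among those at 32-fold or more. 21ur-5107 rose in rde-1 from 7412, 7847 and 7046 to 233991, 310517 and 203964, by 5.05 ± 0.17 (SE).

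Only 2 of the 200 did not pass the test in rde-1, 21ur-5105 and 21ur-2446. 21ur-5105 had 873, 887 and 757 untreated and 985, 735 and 1380.3 oxidized in rde-1, a log2 change of 0.26 ± 0.23 (adjusted p 0.36, limma). In wild type it had 886, 959 and 1232 and 629, 1051 and 1425. Its groups overlapped in both genotypes. 21ur-2446 had 699, 575 and 472 and 843, 609.6 and 628 in rde-1 (log2 0.25 ± 0.21, adjusted p 0.33, limma). In wild type its values were 586, 789 and 1046 and 667, 944 and 1548, which also overlapped. Together with 21ur-2934 and 21ur-4861, named after their values were seen, they were the 4 piRNAs of the list that were less than 2-fold higher in both genotypes. Across the 200, the log2 changes in wild type and rde-1 had a Pearson r of 0.99, given as a description. The rde-1 change exceeded the wild type change by a median of 0.13, with a range from -0.30 to 0.70, and the 2 tables were normalized separately.

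**Figure D2:**
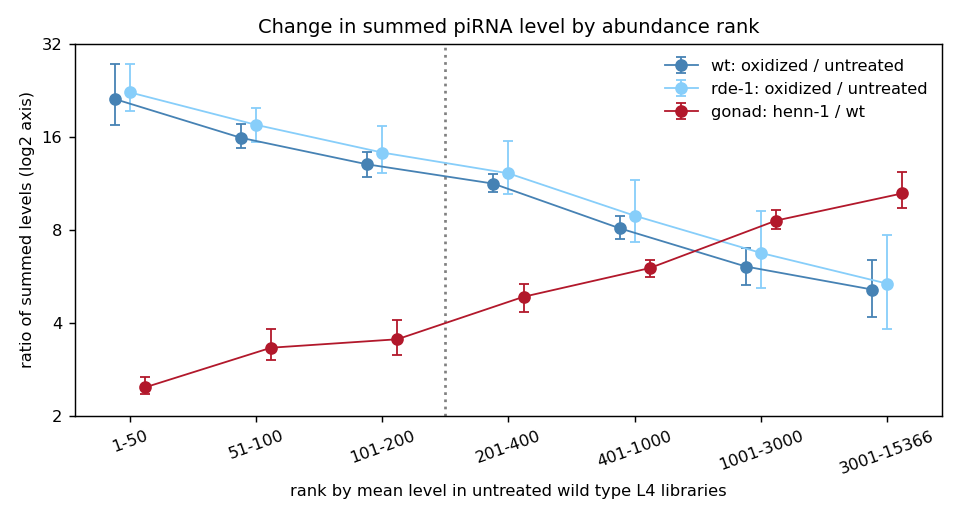
Ratio of summed piRNA levels (log2 axis) for piRNAs binned by rank in untreated wild type animals, for oxidation in wild type (dark blue), oxidation in rde-1 (light blue) and henn-1 over wild type gonads (red); points are ratios of group means, bars the lowest and highest of the 9 library pairings, and the dotted line marks the end of the 200. The oxidation ratio in rde-1 goes from 22.3 at ranks 1 to 50 down to 5.36 beyond rank 3000, and the gonad ratio from 2.47 up to 10.5.

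The gonad libraries ask how these piRNAs fare without the methyltransferase. The 200 were higher in henn-1 gonads, but by less than the other piRNAs, and the 50 most abundant by least. Summed over the 200, the normalized signal was 2.91 times higher in henn-1 than in wild type gonads (2.74 to 3.21 over library pairings), against 7.02 times (6.47 to 7.55) for the other piRNAs. By rank in the L4 animals, the ratio was 2.47 for ranks 1 to 50, 3.32 for 51 to 100, 3.54 for 101 to 200 and 4.86 for 201 to 400. The piRNA class made up 3.17% to 3.47% of listed signal in wild type and 15.5% to 16.8% in henn-1 gonads.

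All 200 passed the filter in gonads. Of them, 181 were higher in henn-1 and 1 lower at an adjusted p under 0.05 (limma), and 18 did not pass the test. Of the 3248 other piRNAs tested 97.7% were higher and 0.0616% lower, and of all 9456 features 42% and 15.9%. The median log2 change was 1.47 for the 200, with quartiles of 0.94 and 2.05. It was 2.98 for the other piRNAs tested and 0.14 for all features. The filter on the mean over both genotypes also admits piRNAs through the henn-1 libraries alone. Without a filter, the medians of the log2 changes between group means were 1.43 for the 200 and 0.96 for all others, whose lower quartile was 0. With 1 piRNA per set of overlapping loci, 174 of 191 were higher. The edgeR test on whole reads recovered from the normalized values called 167 of the 200 higher and 4 lower.

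21ur-1142 had the largest increase, from 179, 136 and 183 in wild type to 2404, 2120.5 and 2621 in henn-1 gonads, 3.84 ± 0.12 (SE) on the log2 scale (adjusted p 6.7e-09, limma). 21ur-1000 rose from 53.4, 54.4 and 95.6 to 768, 612 and 861 and 21ur-5544 from 97.9, 59.1 and 96.5 to 949, 871 and 909.5. 21ur-5860 and 21ur-2558 rose by 3.35 and 3.24. They stood between ranks 95 and 193 in the L4 animals. 21ur-1656 was the single piRNA called lower in this fit, from 96.8, 128 and 80.7 to 54.1, 53.3 and 42.04, -0.9996 ± 0.20 (SE) on the log2 scale (adjusted p 0.0013, limma), and it kept this call under every alternative run.

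Among the 10 most abundant piRNAs, changes in henn-1 gonads lay between -0.23 and 1.42 on the log2 scale. 21ur-5107 had 2153, 2496 and 2732 in wild type and 3608, 3956 and 3496 in henn-1 gonads and rose by 0.59 ± 0.09 (SE). 21ur-8974, which overlaps it, had 1832, 2174 and 2429 and 1895, 1912 and 1668, and its change of -0.23 ± 0.10 did not pass the test (adjusted p 0.082, limma). It was called lower under 5 alternatives, at -0.44 with DESeq2 and -0.47 with edgeR on recovered reads, -0.49 with TMM factors, -0.31 with library totals and -0.33 without wild type library 1. The signal of 21ur-8974 was 0.851 to 0.889 times that of 21ur-5107 in wild type gonads and 0.477 to 0.525 times in henn-1 gonads. 21ur-4554 had 775, 1111 and 842 in wild type and 938, 717 and 787 in henn-1 (log2 -0.15 ± 0.14, adjusted p 0.38, limma). 21ur-8083, which rose strongly on oxidation, had 31.2, 26.9 and 28.8 and 39.5, 32.9 and 47.6 (adjusted p 0.11, limma). The groups of 21ur-4554 overlapped, and it was called lower with DESeq2 (-0.37), edgeR (-0.41) and TMM factors (-0.41). By contrast 21ur-3975, the leading piRNA of wild type gonads, rose from 2593, 2708 and 3192 to 7120.2, 7703 and 7837, by 1.42 ± 0.08 (SE). The remaining piRNAs of the first 10, 21ur-5432, 21ur-552, 21ur-669, 21ur-2686, 21ur-3381 and 21ur-3606, rose by 0.52 to 1.04. The smallest of these, that of 21ur-3606, lost its call with DESeq2 (0.28), edgeR (0.25) and TMM factors (0.26).

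piRNAs with a small oxidation response had the larger gonad increases. Across the 200, the log2 change on oxidation in rde-1 and the log2 change in henn-1 gonads had a Pearson r of -0.55 and a Spearman rho of -0.59, from libraries that share no sample. Among 2840 other piRNAs tested in both, r was -0.33. The points share base composition and the counting of overlapping loci, and the values are a description. In the 50 piRNAs with the smallest rde-1 response (log2 0.25 to 2.63), the median gonad change was 2.12 (quartiles 1.71 and 2.70). In the 50 with the largest (4.31 to 6.29) it was 0.88 (0.60 and 1.19). 21ur-5105 and 21ur-2446, which did not pass the oxidation test, rose by 2.10 and 2.41 in henn-1 gonads.

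**Figure D3:**
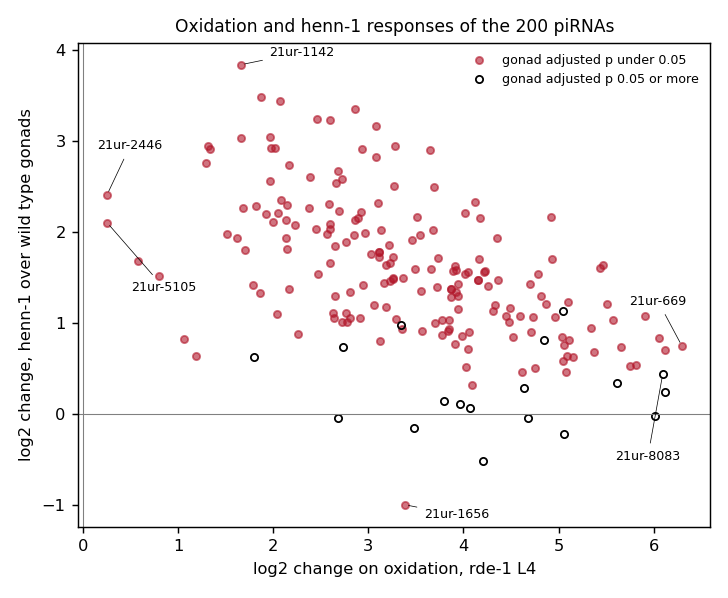
Log2 change on oxidation in rde-1 animals (x axis) against log2 change in henn-1 over wild type gonads (y axis) for each of the 200 piRNAs; filled points passed the gonad test and open ones did not. Points run from the upper left, where 21ur-1142 reached 3.84 in gonads with 1.66 on oxidation, to the lower right, where 21ur-669 had 0.75 and 6.29, and 21ur-1656 is the filled point below 0.

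Some muscle and germline marker genes differed with genotype in the gonad mRNA libraries. Of 5 muscle genes, all tested, 4 were higher in henn-1 (myo-3, unc-54, unc-27 and mup-2), with a summed normalized signal of 398 to 495 in wild type and 777 to 1149 in henn-1. Sperm genes summed to 35.3 to 165 and 51.8 to 345, intestinal genes to 75.1 to 359 and 101 to 321, epidermal genes to 65.9 to 189 and 108 to 224, and neuronal genes to 493 to 543 and 426 to 503, with no called gene among them. The epidermal genes dpy-7 and rol-6 were listed at 0 in every library. The 6 germline genes summed to 62758 to 66750.2 in wild type and 55308 to 56508 in henn-1, and 3 of them, pgl-1, rme-2 and htp-3, were lower. Which cells the signal of the muscle genes came from was not tested, nor was the part of these differences in the piRNA changes.

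In embryos the 200 held a smaller share of piRNA reads in every henn-1 library than in any wild type one, as given above, a value that no scaling of libraries changes. Their levels relative to all counted RNAs did depend on the scaling. Counts were summed over read lengths and tested with the quasi-likelihood test of edgeR under TMM scaling, with piRNAs and the 22G-RNA loci of worm-specific Argonautes (WAGO loci) in 1 fit. All 200 passed the filter. Of them, 80 were higher and 13 lower in henn-1 embryos at an adjusted p under 0.05, and 107 did not pass. Among 5212 other piRNAs tested 77.7% were higher and 3.07% lower, and among all 7739 features 53.4% and 32.1%. Median log2 changes were 0.74 for the 200, 2.35 for the other piRNAs and 1.29 for all features. The filter also admits other piRNAs through the henn-1 libraries alone, which raises their values. Without a filter, the medians were 0.73 for the 200 and 0.38 for all others, whose lower quartile was 0. Summed without a filter, the level in henn-1 was 1.57 times that in wild type for the 200 (0.849 to 3.54 over library pairings). For all others it was 3.81 times (2.46 to 5.82). Without wild type library 1, 56 of the 200 were higher and 52 lower, with a median of 0.02, and 54 of the 80 and all 13 kept their call. Without wild type library 3, 22 were higher and 28 lower. Scaled to the summed WAGO loci, 177 were higher and none lower, with a median of 3.78. The median of all features was then 4.70. Reads of WAGO loci numbered 606066 to 3446299 in wild type and at most 322462 in henn-1 libraries, so this scaling raises piRNAs as a whole. Leaving out wild type library 2 gave 51 higher and 21 lower, and leaving out henn-1 library 2 gave 53 and 9.

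21ur-2558 had the largest increase in embryos, from 25.3, 24.7 and 24.7 CPM (counts scaled to library size) in wild type to 299.8, 339 and 377 in henn-1, 3.76 ± 0.36 (SE) on the log2 scale (adjusted p 5.2e-06, edgeR). 21ur-1142, which also led in gonads, went from 358, 212 and 218 to 2204, 2641 and 2189 CPM. 21ur-4037, 21ur-9600 and 21ur-1373 rose by 2.99, 2.89 and 2.76. All 5 kept their call with any library left out, but their sizes moved. Without wild type library 1 the changes of 21ur-2558, 21ur-1142, 21ur-4037 and 21ur-1373 were 2.44, 2.12, 2.33 and 1.41, and without wild type library 3 the 5 changes lay between 1.89 and 2.84. Of the piRNAs that were lower, 21ur-3192 had 98.02, 29.3 and 33.9 CPM in wild type and 7.39, 3.41 and 7.72 in henn-1 embryos (log2 -3.07 ± 0.55, adjusted p 2.1e-04, edgeR). 21ur-4864 went from 249, 201 and 223 to 22.2, 31.6 and 26.4 CPM (log2 -3.07 ± 0.35). 21ur-1018, 21ur-5366 and 21ur-4187 fell by 2.57, 1.94 and 1.76 on the log2 scale. 21ur-6176 fell by 1.04 and 21ur-1656, the piRNA that fell in gonads, by 1.62. All of these decreases became increases when libraries were scaled to WAGO loci, except that of 21ur-3192, whose value then was -0.17 and no longer passed. The call of 21ur-6176 was also lost with library totals (-0.47), with 21 nt reads alone (-1.35), with the replicate block (-0.88) and without any 1 of the 3 henn-1 libraries (-0.98 to -1.12). Those of 21ur-5366 (-1.43) and 21ur-1656 (-1.08) were lost with library totals. Without wild type library 3 all 7 decreases were larger, from -1.81 for 21ur-6176 to -3.92 for 21ur-4864.

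Of the 10 most abundant piRNAs, 9 did not pass the embryo test in this fit, and several of these calls depended on the libraries and the scaling. 21ur-5107 had 8222, 1824 and 3435 CPM in wild type and 3967, 5029 and 3823 in henn-1 (log2 -0.07 ± 0.56, adjusted p 0.91, edgeR), and 21ur-5432 had 6136, 1332 and 2137 and 3336, 4399.6 and 3299.7. The high first value of both is that of the wild type library that stood apart, and the groups overlapped. 21ur-3975 was called, higher by 1.67 (adjusted p 0.0042, edgeR), with 0.72 without wild type library 1 and a lost call without wild type library 3 (0.91). 21ur-4554 (-0.98) and 21ur-3606 (-0.87) were called lower with DESeq2 (-1.65 and -1.56) and without wild type library 1 (-1.78 and -1.74), 2 (-1.36 and -1.24) or 3 (-1.67 and -1.56). Without wild type library 1, 21ur-2686 was called lower (-1.09) and 21ur-669 higher (0.64), the latter also with the replicate block (1.20). Scaled to WAGO loci, 21ur-4554, 21ur-3606 and 21ur-2686 were higher (2.07, 2.21 and 3.20). Across the 200, the log2 changes in gonads and embryos had a Pearson r of 0.77 and a Spearman rho of 0.77, as a description from separate libraries of the same genotypes. Among 3177 other piRNAs tested in both, r was 0.72. All 80 piRNAs that were higher in embryos were also higher in gonads. Of the 13 that were lower in embryos, 9 were higher in gonads, 3 did not pass the gonad test and 21ur-1656 was lower in both.

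Read lengths were listed for embryos alone, from 16 to 21 nt, so longer reads are not part of what follows. In wild type embryos most reads of the 200 were of 21 nt, the full length of a mature piRNA, and in henn-1 embryos most were shorter, with 20 nt as the leading length. Reads of 21 nt made up 72.5%, 78.1% and 75.02% of the reads of the 200 in the wild type libraries and 33.9%, 29.6% and 30.2% in henn-1. For the other piRNAs these shares were 70.2%, 76.2% and 73.7%, and 26.9%, 21.6% and 23.2%. Summed over reads, the 200 thus had a larger share of 21 nt reads than the others in each of the 6 libraries, and the 2 sets come from the same libraries. With 1 piRNA per set of overlapping loci, the means were 80.2% in wild type and 32.8% in henn-1 for the list, and 78.4% and 28.2% for the others. Reads of 20 nt made up 11.3% ± 0.656 of the reads of the 200 in wild type and 41.6% ± 0.881 in henn-1 (SD, n = 3), and reads of 19 nt 2.76% ± 0.211 and 17.3% ± 1.28. In the other piRNAs the 19 nt share was 8.05% ± 1.27 in wild type and 23.7% ± 1.82 in henn-1.

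**Figure D4:**
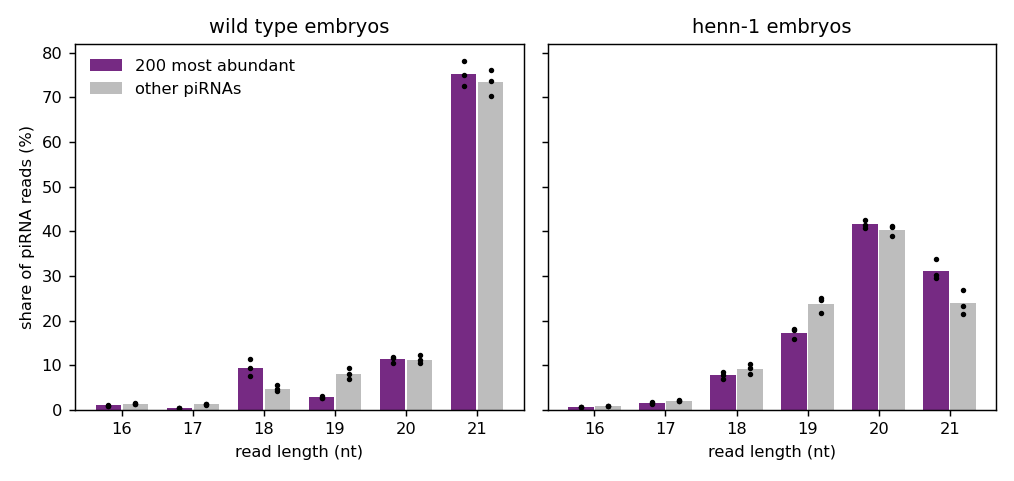
Share of piRNA reads by length (16 to 21 nt) in wild type and henn-1 embryos for the 200 most abundant piRNAs (purple) and all other piRNAs (grey); bars are means of 3 libraries and points single libraries. The 21 nt bar of the 200 stands at 75.2% in wild type and 31.2% in henn-1 and the 20 nt bar at 11.3% and 41.6%, and the 18 nt bar of the 200 in wild type stands at 9.46% against 4.76% for the other piRNAs.

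Per piRNA, the odds of a read shorter than 21 nt were tested with edgeR, with each library as its own reference. All 200 passed the filter of a mean of at least 20 reads. The odds were higher in henn-1 for 162 of them and lower for 8, and 30 did not pass. Among 3630 other piRNAs tested, 77.7% were higher and 1.38% lower, and among all 3830 tested 77.9% and 1.51%. At 162 of 200, the share of the 200 with higher odds was close to that of the class. The most frequent length was 21 nt for 157 of the 200 (78.5%) in wild type and for 55 (27.5%) in henn-1. Among the other piRNAs tested the shares were close to these, 77.4% and 26.1%. In henn-1, 20 nt was the most frequent length for 104 of the 200 (52.0%), against 44.3% of the other piRNAs tested.

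How much of the full-length form remained differed strongly between piRNAs. 21ur-4554 had 21 nt shares of 99.6%, 99.2% and 99.3% in wild type and 0.321%, 0.559% and 0.0737% in henn-1 embryos. 21ur-1656 went from 99.8% ± 0.143 to 0.567% ± 0.344 (SD, n = 3), and 21ur-669 from 99.2% ± 0.0462 to 2.22% ± 0.383. In 21ur-7999 all 302 wild type reads were of 21 nt, which allows a share of shorter reads of up to 0.993%, and 6 of 582 henn-1 reads were. 21ur-3840 and 21ur-3614 were among the 5 largest losses as well. Others kept much of it: 21ur-552 went from 98.8% ± 0.131 to 74.9% ± 2.26, 21ur-3606 from 99.00% ± 0.348 to 56.8% ± 5.32 and 21ur-2446 from 99.3% ± 0.170 to 87.4% ± 1.32. In each of these piRNAs the 2 genotypes did not overlap. Of 106 piRNAs of the list with at least 90% of 21 nt reads in wild type, 32 kept under 10% in henn-1, 55 kept between 10% and 50%, and 19 kept 50% or more. Of 1050 other piRNAs with at least 90% in wild type, 23.5% kept under 10% and 34.2% kept 50% or more, against 30.2% and 17.9% of the 106. The median share kept was 23.8% for the 106 and 31.6% for the 1050. Among piRNAs with at least 90% of 21 nt reads in wild type, the list thus kept less per piRNA than the others. That is the opposite order to that of the summed reads, but this subset was 53% of the 200 and 28.9% of the others tested. Over all piRNAs tested, the median 21 nt share in henn-1 was 24.9% for the 200 and 15.5% for the others, the order of the summed reads.

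**Figure D5:**
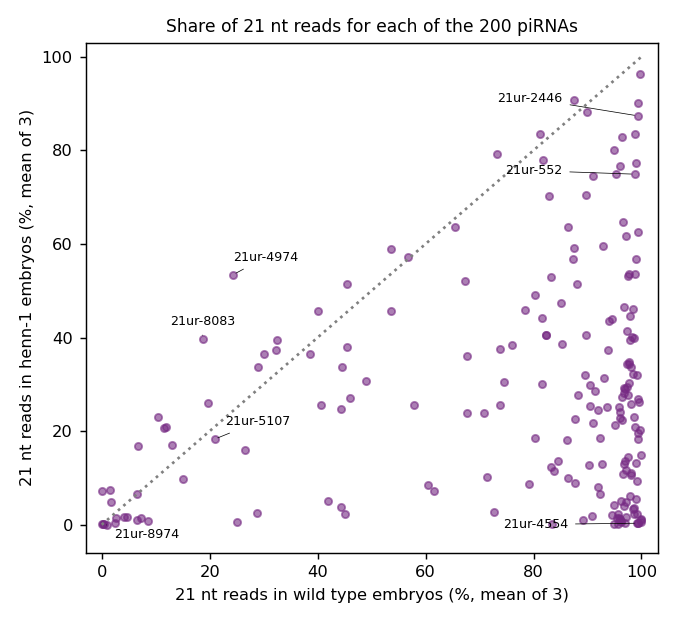
Share of 21 nt reads in wild type (x axis) and henn-1 embryos (y axis), in percent, as the mean of 3 libraries for each of the 200 piRNAs; the dotted line marks equal shares. Most points lie at the right edge and spread from near 0 (21ur-4554, 0.318%) to high shares (21ur-2446, 87.4%), and a few piRNAs with short reads in wild type, such as 21ur-4974 and 21ur-8083, lie above the line.

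In wild type already, 43 of the 200 (21.5%) had a most frequent length under 21 nt, against 22.6% of the other piRNAs tested. The 2 leading piRNAs were among them. Of the 21ur-5107 reads in wild type embryos, 84.5%, 69.1% and 75.8% were of 18 nt, and in henn-1 embryos 20.6%, 21.4% and 20.1%, where 20 nt reads made up 38.1%, 38.3% and 38.99%. The 18 nt reads numbered 6872, 3872 and 5374 for 21ur-5107 and 6875, 3874 and 5383 for 21ur-8974 in wild type. By contrast 21ur-8974 had 10, 12 and 15 reads of 21 nt there, and 21ur-5107 had 1062, 1577 and 1526. The counts of 18 nt reads of the 2 overlapping loci were thus nearly equal, and their 21 nt reads were counted almost entirely for 21ur-5107. Neither passed the length test, and without wild type library 1 both were called with higher odds (0.56 and 1.09 on the log2 scale). Without this pair, the 18 nt share of the list in wild type embryos was 2.59% ± 0.353 (SD, n = 3) in place of 9.46% ± 1.96, and the 21 nt share 80.9% ± 1.47 in place of 75.2% ± 2.77. 21ur-3381 had 21 nt shares of 15.5%, 30.2% and 29.4% in wild type and 0.893%, 0.849% and 0.212% in henn-1. Its 18 nt reads, however, made up 81.5%, 64.9% and 65.96% in wild type and 16.1%, 15.97% and 14.9% in henn-1. Reads of 20 nt made up 75.9%, 74.9% and 75.4% in henn-1, so its most frequent length was longer there than in wild type.

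Of the 8 piRNAs with lower odds of short reads in henn-1, 6 are named here. 21ur-8083 had 21 nt shares of 16.7%, 20.1% and 19.3% in wild type and 40.5%, 39.02% and 39.6% in henn-1 embryos, and 21ur-4974 had 19.1%, 29.4% and 24.3% and 55.5%, 50.5% and 54.2%. 21ur-4834 went from 6.79% ± 3.14 to 16.7% ± 4.89, 21ur-5061 from 10.5% ± 3.95 to 22.9% ± 1.60 and 21ur-2316 from 1.57% ± 0.637 to 7.42% ± 2.26. 21ur-7314 had no 21 nt read among 55 wild type reads, which allows a share of up to 5.45%, and 18 among 248 henn-1 reads. In these 6, 21 nt reads were the minority in wild type. The call of 21ur-7314 was lost without henn-1 library 1 and without any 1 of the 3 wild type libraries (log2 odds -4.32 to -5.18). 21ur-2289, with 53.6% ± 10.8 and 58.9% ± 3.34, overlapped and did not pass the test.

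The machinery that makes and uses piRNAs was measured in the gonad mRNA libraries. Of 35 listed pathway genes, 34 were found and 33 tested. Of these, 14 were lower in henn-1, henn-1 itself among them, and 1 was higher, at an adjusted p under 0.05 (limma). Over all 8750 mRNAs tested 12.4% were lower and 7.44% higher. henn-1 fell by 3.24 ± 0.05 on the log2 scale (adjusted p 2.4e-10, limma). pid-2, a factor of germline small RNA silencing, fell by 0.30 (adjusted p 0.0029, limma), and wago-4, an Argonaute of inherited silencing, by 0.39 (adjusted p 0.0050, limma). The single gene that was higher was erh-2, a subunit of the complex that binds piRNA precursors, by 0.17 (adjusted p 0.037, limma). Of the genes for the secondary 22G-RNA pathway 5 of 6 were lower, of those for perinuclear granules 3 of 4, and of those for precursor processing 1 of 9. In the same libraries 3 of 6 germline markers were lower (median log2 -0.19) and 4 of 5 muscle genes higher, as given above, and pgl-1 and glh-1 belong to both the granule and the germline list. The part of these differences in the pathway counts was not tested. The count of lower genes was 6 without henn-1 library 2, 7 without wild type library 2 and 9 without wild type library 3. prg-1 and parn-1 are given for their roles, outside the rule by which genes were named. prg-1 had normalized signals of 9973, 10505 and 11171 in wild type and 9138, 9087 and 10119 in henn-1 (log2 -0.16, adjusted p 0.068, limma). parn-1 had 1579, 1472 and 1612, and 1614, 1719 and 1741 (log2 0.12, adjusted p 0.10, limma). Neither change passed the test, and the groups of prg-1 overlapped.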

How the data were processed

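Small RNA libraries of whole animals, gonads and embryos and mRNA libraries of gonads were used, 3 per group, grouped by the samples' titles. Per the labels' protocols, small RNA fractions were cut from gels and 5′ triphosphates removed, and part of the libraries received periodate. The deposited oxidation, gonad small RNA and gonad mRNA tables hold a normalized signal per feature, for which DESeq2 1.18.1 is named per the submitters' processing notes, with Trimmomatic 0.35, STAR 2.5.0a and RSEM 1.3.0 for mRNA. For embryos the deposited values are expected counts, split by feature and by length of the read. For small RNAs, neither the aligner, the genome build nor the handling of multiply mapping reads is given in the sources used here. No coordinates are given, and the reference name table served for names, chromosomes and neighbours.

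The list of piRNAs, the gene lists and the tests were chosen with earlier results of these data known. The normalized tables were fitted as log2(value + 1) with limma 3.58.1 (trend, R 4.3.3), keeping features whose mean reached 10, and fold changes are on that scale, which understates changes of low features. For embryos, counts of all lengths were added up and rounded before edgeR 4.0.16 (TMM). Read lengths were fitted with edgeR as the ratio of reads under 21 nt to 21 nt reads, with a coefficient per library, for piRNAs with a mean of at least 20 reads. Benjamini-Hochberg adjustment ran over all features of a fit, and the threshold was 0.05. Each procedure was tested on simulated data. The oxidation and gonad values came out as whole reads in 100.0% of cases (tolerance 0.1 reads), and edgeR on these recovered reads called 7756 of 10447 features in gonads and 6177 of 12082 in rde-1. DESeq2 1.42.0, other scalings, filters and pseudocounts, libraries left out and a replicate block were alternatives. Counting error is not the only error, since reads carry no molecular identifiers.

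Named piRNAs were the 10 most abundant, the 3 on either side of the end of the list, the 5 largest increases and decreases per test among called piRNAs without overlap between groups, and those called against the majority or not called (3 by level where over 5). Of the pathway genes, henn-1 and the 3 called genes of lowest adjusted p in each direction were named. Marker genes were named by list. Values of other sets of the series were not used here.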

Additional observations from a re-analysis of the deposited data

Results flagged for a closer look

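For 6 of the named piRNAs every henn-1 gonad library was above every wild type one, while every henn-1 embryo library was below every wild type one. In log2 values, 21ur-4864 changed by 0.64 in gonads and -3.07 in embryos, 21ur-1018 by 1.11 and -2.57, and 21ur-5366 by 0.52 and -1.94. For 21ur-4187 the values were 1.3001 and -1.76, for 21ur-6176 1.08 and -1.04, and for 21ur-3606 0.52 and -0.87, the last without passing the embryo test. For 21ur-3606 the embryo value was called without wild type library 1 (-1.74), 2 (-1.24) or 3 (-1.56), and the gonad value lost its call with DESeq2 (0.28), edgeR (0.25) and TMM factors (0.26). For 21ur-6176 the embryo call was lost without any 1 of the 3 henn-1 libraries (-0.98 to -1.12). The difference between the tissues was not tested. Embryo values are relative to TMM scaling, under which the median of all features was 1.29. All 6 were positive when libraries were scaled to WAGO loci, where that median was 4.70.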

How the results depend on the processing

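The gonad counts kept their direction throughout. The number of piRNAs called higher in henn-1 gonads ranged from 164 to 183 over the alternatives and from 170 to 182 with 1 library left out. The number called lower was 1, and 3 with DESeq2 on recovered reads or TMM factors, 4 with edgeR on recovered reads, 2 with library totals, and 1 to 2 with 1 library left out (2 without wild type library 1). For oxidation in rde-1 the number called higher ranged from 189 to 198, with none lower under any alternative. Oxidation in wild type gave medians from 3.22 to 3.55.

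Embryo levels depended on the scaling. The counts called higher and lower (80 and 13) became 53 and 39 with DESeq2 (median log2 0.13) and 107 and 4 with library totals. They became 177 and 0 scaled to WAGO loci (median 3.78, against 4.70 for all features) and 88 and 32 on 21 nt reads alone. With 1 library left out they ranged from 22 to 66 and from 9 to 52, and the median from 0.0186 to 0.78. The lowest count of higher piRNAs was without wild type library 3 and the highest count of lower ones without wild type library 1. Among named piRNAs called in either fit, the sign turned when scaled to WAGO loci for 21ur-5107 (2.95), 21ur-8974 (2.92), 21ur-4554 (2.07), 21ur-552 (2.80), 21ur-2686 (3.20), 21ur-3381 (2.87), 21ur-3606 (2.21), 21ur-4864 (0.19), 21ur-1018 (0.48), 21ur-5366 (0.98), 21ur-4187 (1.3035), 21ur-6176 (1.98) and 21ur-1656 (1.37). On 21 nt reads alone it turned for 21ur-5107 (2.05), 21ur-8974 (1.61), 21ur-2686 (1.46), 21ur-4187 (0.0433), 21ur-669 (-2.95) and 21ur-3975 (-0.55). That fit left out shorter piRNA reads, kept WAGO reads of all lengths and computed the TMM scaling anew. Its counts and signs are therefore relative to another scaling, under which the median of all features was 0.05, against 1.29. The sign also differed, without a call in either fit, for 21ur-5432 (-0.96), 21ur-552 (1.38) and 21ur-3606 (0.35).

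With short reads defined as under 20 nt, 21 piRNAs had lower odds in place of 8, and the median was 3.64 in place of 4.75. The sign turned for 21ur-5107 (-2.33), 21ur-8974 (-6.74), 21ur-3381 (-3.04), 21ur-7314 (3.34), 21ur-4974 (5.43) and 21ur-5061 (6.30). This definition counts 20 nt reads as long. In 21ur-5107, 21ur-8974 and 21ur-3381, 18 nt was the leading length in wild type embryos and 20 nt in henn-1 embryos. The cause of the turns was not tested.

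The share of the class moved with the size of the list. In the order untreated and oxidized wild type, untreated and oxidized rde-1, wild type and henn-1 gonads, and wild type and henn-1 embryos, the first 100 piRNAs held 27.7%, 46.1%, 27.8%, 45.2%, 34.5%, 18.2%, 27.6% and 14.7%, and the first 400 held 53.8%, 73.1%, 54.9%, 73.4%, 58.95%, 38.4%, 50.99% and 31.6%. Without 21ur-5107 and 21ur-8974, an alternative added after seeing the data, the first 6 values were 36.7%, 50.6%, 37.6%, 52.0%, 43.01% and 25.4%, and henn-1 embryos stood at 20.51%. With 1 piRNA per set of overlapping loci, also added later, the share was 60.3% in oxidized rde-1, 47.7% and 27.75% in wild type and henn-1 gonads and 23.9% in henn-1 embryos. Ranked by the median the share in henn-1 gonads was 27.1%. It was 27.1% and 25.6% with the ranking made without untreated wild type libraries 2 and 3. The share in oxidized rde-1 was 59.2% and 59.8% with the ranking made without libraries 1 and 2.

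Of the pathway mRNAs, 0 were higher in place of 1 without the filter, with a range of 0 to 3 and of 6 to 15 lower with 1 library left out. The replicate numbers were not used as pairs, and no table had all 3 correlations of same-numbered deviations above 0.1. That cannot show that the libraries are unpaired. On oxidation all 3 correlations were above 0, from 0.027 to 0.059 in wild type and from 0.013 to 0.214 in rde-1. A replicate block gave 181 higher and 1 lower in gonads, 198 and 0 in rde-1, 85 and 9 in embryos, 161 and 8 for short reads, and 0 higher and 13 lower pathway mRNAs. The 3 libraries per group, the stage labels of the oxidized animals, the counting of overlapping loci and the unlisted read lengths above 21 nt limit what these tables show. Wild type embryo library 1 held 967644 reads, of which 361578 were piRNA reads, against 438811 and 383333 piRNA reads in the other wild type embryo libraries. In any library, piRNAs with few reads have imprecise length shares.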
